A study of Mus musculus with 20 samples.

Results

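Nuclear genes for subunits of the oxidative phosphorylation complexes were followed in the hippocampus of adult mice, 89 genes out of 48709 in the count table. A gene was a member when it was annotated as protein-coding and its symbol began with Ndufa, Ndufb, Ndufc, Ndufs, Ndufv, Sdh, Uqcr, Cox4 to Cox8 or Atp5. The assembly factors named Ndufaf were left out. The choice used names and gene class and no measured value, but it was made with earlier results of these data known.

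Oxidative phosphorylation is the mitochondrial route by which cells turn the energy of NADH and succinate into ATP. Complex I (NADH dehydrogenase) and complex II (succinate dehydrogenase) pass electrons to ubiquinone, complex III passes them to cytochrome c and complex IV (cytochrome c oxidase) to oxygen, while the proton gradient built on the way drives complex V, the ATP synthase. Complexes I, III, IV and V combine subunits encoded in mitochondrial DNA with a larger number encoded in the nucleus, complex II is wholly nuclear, and in the hippocampus this route supplies most of the ATP that synaptic transmission and ion pumping use.

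RNA was taken from the right hippocampus of 20 C57BL/6J mice, 5 in each of 4 groups. The dams of the nPM females and nPM males inhaled nPM, nanosized particulate matter collected from urban air beside a freeway, in sessions of 5 h that were held 3 times weekly from gestational day 2 until birth. The dams of the control females and control males inhaled filtered air in the same way, and all offspring were sampled as young adults long after the exposure had ended. Females were 17.71 to 18.29 weeks old and males 18.57 to 19.14 weeks old, so every male was older than every female. Over the 20 mice the correlation of age with sex was 0.943, and effects of age and of sex on a level cannot be told apart. The methods describe EdU, a label of dividing cells, as given to male mice, and add that every animal received it. If this means every male and no female, EdU goes with sex as well. The offspring of each exposure came from 5 litters, and which litter a mouse belonged to is not given in the sources used here.

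Total counts per library were between 19092067 and 38663408. Between 112812 and 355880 of them fell on the members, that is 0.591% to 0.920% of a library. Shares ran from 0.591% (nPM female 4) to 0.779% (control female 4) in females and from 0.767% (nPM male 5) to 0.920% (control male 4) in males, so the sexes overlapped little. Levels within a gene are given as CPM, counts scaled to library size with the TMM factors of edgeR, and levels between genes as RPKM, which also divides by gene length. A count of 0 allows up to 3 counts, which is 0.0776 to 0.157 CPM at these depths. Floors cover counting error only, whereas intervals of fold changes rest on the spread between mice of a group. In whole tissue, fewer cells of a type and less RNA per cell cannot be told apart.

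The names caught 36 members of complex I, 8 of complex II, 8 of complex III, 20 of complex IV and 17 of complex V. Ndufa4 and its relative Ndufa4l2 carry names of complex I and were counted with complex IV, since the Ndufa4 protein is a subunit of cytochrome c oxidase. A few members are not subunits: Sdhaf1, Sdhaf2, Sdhaf3 and Sdhaf4 assemble complex II, and Atp5s is a factor linked to the ATP synthase and not part of its core. Ndufab1 is also the acyl carrier protein of mitochondria, and Cox7a2l joins complexes III and IV into larger assemblies. In turn the names miss Cyc1 (cytochrome c1 of complex III), Usmg5 (a small subunit of complex V) and the carrier Cycs. Of the 89 members, 88 had enough counts to be tested, among 19797 genes tested in all. The exception was Cox8c, a testis form of a complex IV subunit, with 0 counts in each of the 20 libraries.

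Some of these counts are less certain than their size implies. In a later annotation of the same genome build, exons of 33 members overlapped exons of another gene, 30 of them on the opposite strand. The longest overlap, that of Sdhaf1 with E130208F15Rik on the opposite strand, spans 1733 bases. The overlap of Ndufb5 with Mrpl47 spans 530 bases and that of Atp5j with Gabpa 175 bases. The table also holds 11 pseudogenes with a member's prefix, of which Atp5k-ps2 (12.2 RPKM) and Cox6c2 (10.6 RPKM) were the most abundant. The strand setting of the counting and the treatment of reads with several alignments are not given in the sources used here, so counts of members with overlaps or close copies are uncertain.

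Nuclear genes of this system are scattered over the chromosomes and are known to share regulators, among them NRF1, the ETS factor GABP, YY1 and the estrogen-related receptors (ERR). Promoter windows, 250 bases before to 50 bases after a gene's start, were matched to 73 of the 89 members in the RefSeq table of build GRCm38.p6. No window was given for the other 16. Both strands were searched for short consensus letters of NRF1 (GCGCANGCG), YY1 (AAGATGGCG), ETS factors, ERR and the TATA box, and a palindromic stretch can match NRF1 on both strands at overlapping places. The NRF1 letters were in the windows of 28.8% of matched members and of 7.03% of 27025 genes. The ETS letters were in 26.0% against 9.93%, and the YY1 letters in 9.59% against 1.64%. The shares of these 3 motifs among members were thus more than 2 times those among all genes of the table. The ERR letters were in 9.59% against 5.38%. The TATA letters were in 8 of 73 members (10.96%) against 15.7% of all genes. No difference between these shares was tested. At least 1 of the first 4 motifs was in 39 of 73 members (53.4%) and in 21.2% of all genes. A match describes letters in a window and is not a binding site.

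The windows below show the range among members whose values are described further on. Sdha, the flavoprotein subunit of complex II, had 3 copies of the NRF1 letters (minus strand, chr13:74350191-74350490). Atp5j, a stalk subunit of the ATP synthase, had the YY1 and the ETS letters (minus strand, chr16:84834927-84835226; a further window of this gene had neither). Cox6b1, a subunit of complex IV present in most tissues, had the ETS letters on the opposite strand (minus strand, chr7:30626065-30626364). Its testis form Cox6b2 had none of the 5 motifs (minus strand, chr7:4753045-4753344). Cox8b, the heart and muscle form of a complex IV subunit, had the TATA letters alone (minus strand, chr7:140900397-140900696). Each sequence runs 5′ to 3′ on the gene's strand, with the matched letters in capitals.
Sdha: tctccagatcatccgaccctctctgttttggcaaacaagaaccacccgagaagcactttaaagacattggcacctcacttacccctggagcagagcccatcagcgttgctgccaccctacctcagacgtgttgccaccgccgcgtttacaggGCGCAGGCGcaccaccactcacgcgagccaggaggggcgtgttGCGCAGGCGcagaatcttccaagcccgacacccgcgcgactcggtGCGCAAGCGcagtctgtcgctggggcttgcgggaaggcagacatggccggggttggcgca
Atp5j: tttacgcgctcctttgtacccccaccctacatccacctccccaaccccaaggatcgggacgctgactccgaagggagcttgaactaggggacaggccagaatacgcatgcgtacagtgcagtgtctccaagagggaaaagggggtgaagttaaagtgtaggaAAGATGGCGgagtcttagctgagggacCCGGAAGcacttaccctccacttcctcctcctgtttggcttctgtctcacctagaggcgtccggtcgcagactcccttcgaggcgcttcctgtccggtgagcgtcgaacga
Cox6b1: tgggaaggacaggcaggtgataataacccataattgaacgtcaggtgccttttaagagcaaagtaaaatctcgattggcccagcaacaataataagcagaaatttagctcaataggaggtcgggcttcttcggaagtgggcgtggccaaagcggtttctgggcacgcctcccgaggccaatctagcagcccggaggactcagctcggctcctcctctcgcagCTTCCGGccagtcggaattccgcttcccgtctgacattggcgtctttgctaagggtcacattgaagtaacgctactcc
Cox6b2: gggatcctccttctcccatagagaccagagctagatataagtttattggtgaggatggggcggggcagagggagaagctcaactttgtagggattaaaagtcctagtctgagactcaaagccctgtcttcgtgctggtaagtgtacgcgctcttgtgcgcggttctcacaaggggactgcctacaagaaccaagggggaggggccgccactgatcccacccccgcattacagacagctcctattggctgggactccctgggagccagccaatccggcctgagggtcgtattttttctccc
Cox8b: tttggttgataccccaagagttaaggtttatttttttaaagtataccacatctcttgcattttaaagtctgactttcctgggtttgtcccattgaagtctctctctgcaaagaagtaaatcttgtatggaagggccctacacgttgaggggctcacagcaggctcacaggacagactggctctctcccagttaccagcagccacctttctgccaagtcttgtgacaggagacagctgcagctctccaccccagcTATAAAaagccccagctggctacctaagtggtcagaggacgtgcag

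Most members were abundant. The median level of the 88 tested members was 44.9 RPKM, against 3.36 RPKM over all genes tested, and 62 of the 88 lay in the top 10% of genes. Medians were 39.9 RPKM in complex I, 14.8 in complex II, 77.8 in complex III, 88.5 in complex IV and 51.0 in complex V. The low median of complex II came with its assembly factors, since its 4 subunits alone had a median of 42.3 RPKM. These levels divide by the deposited length, which sums all exons of a gene. With the length of the principal transcript instead, an alternative chosen after the data were seen, the median of the members was 66.5 RPKM, and Spearman's rho between both orders of the 88 members was 0.870.

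**Figure D1:**
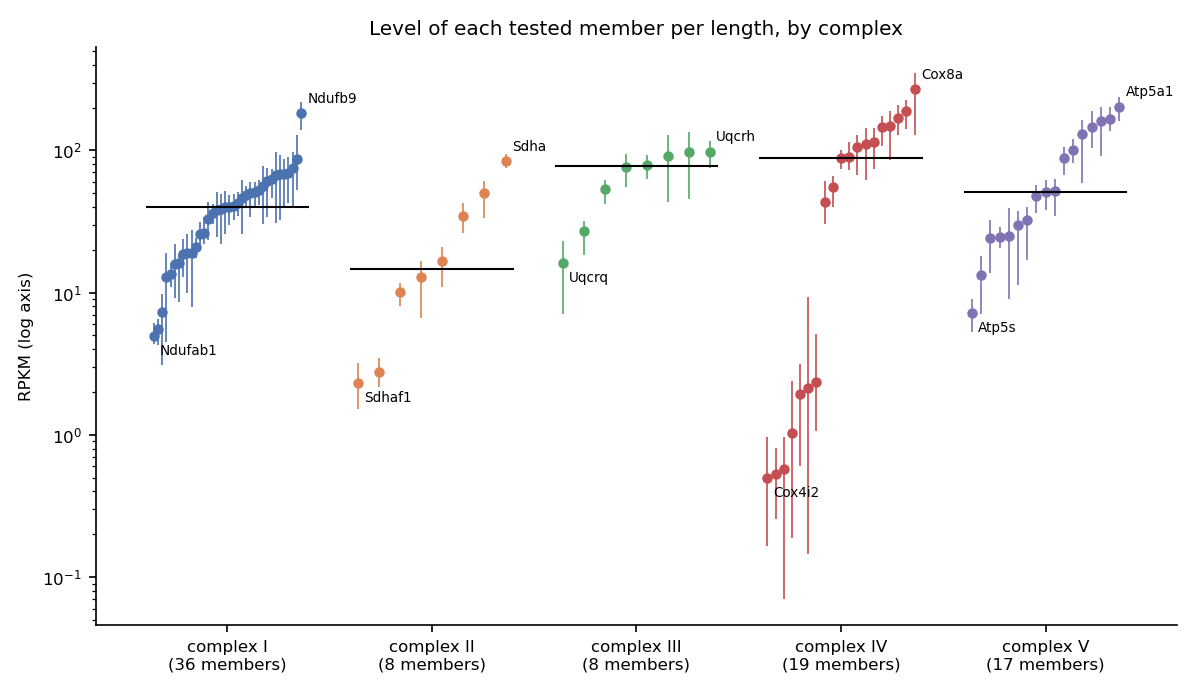
Mean level of each tested member in RPKM (log axis, points) by complex, with the lowest and highest of 20 samples (vertical lines) and the median of each complex (horizontal lines). Medians run from 14.8 RPKM in complex II to 88.5 in complex IV, where 7 rarely expressed members lie under 10 RPKM.

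Each complex spanned a wide range. In complex I the highest mean was that of Ndufb9, an accessory subunit of the membrane arm, at 183 ± 26.4 RPKM (SD, n = 20). The lowest was that of Ndufab1 at 4.97 ± 0.395, a rank that rests on the deposited length. Without division by length Ndufab1 stood at 30.2 to 43.8 CPM, and Ndufc1 stood lower in females (at most 27.5 CPM). In complex II the catalytic subunit Sdha stood at 84.2 ± 4.47 RPKM and the assembly factor Sdhaf1 at 2.31 ± 0.465. In complex III the hinge protein Uqcrh stood at 97.9 ± 12.5 RPKM and Uqcrq, a small subunit that contacts ubiquinone, at 16.1 ± 3.68. Complex IV held the most abundant member of all, Cox8a, at 269 ± 53.9 RPKM, and also the rarest tested, Cox4i2, at 0.498 ± 0.221. In complex V the alpha subunit Atp5a1 stood at 203 ± 20.4 RPKM and Atp5s at 7.15 ± 1.202. The wide span of complex IV reflects its tissue forms, which share a place in the enzyme and replace each other between tissues.

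For every pair of complex IV forms, the widely expressed form exceeded the tissue form in 20 of 20 samples. The ratio of mean RPKM was 342 for Cox4i1 over Cox4i2, the form of lung and oxygen-sensing cells. It was 75.4 for Cox6a1 over the muscle form Cox6a2, 185 for Cox6b1 over Cox6b2 and 62.5 for Cox7a2 over the muscle form Cox7a1. It was 184 for Cox7b over the testis form Cox7b2, 127 for Cox8a over Cox8b and 207 for Ndufa4 over Ndufa4l2. The hippocampus thus carried almost wholly the widely expressed set. The c ring of the ATP synthase differs, because Atp5g1, Atp5g2 and Atp5g3 encode the same mature protein behind different import signals. Atp5g3 exceeded Atp5g1 by a ratio of 3.90 and Atp5g2 by 2.08, each in 20 of 20 samples. With the length of the principal transcript these ratios were 11.3 and 2.74. The same change gave 644 for Cox4i1 over Cox4i2, 457 for Ndufa4 over Ndufa4l2 and 112 for Cox6b1 over Cox6b2, so the ratios depend on the length used, while their direction did not. Cox7a2l, related to Cox7a2, stood at 90.3 ± 13.2 RPKM.

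nPM female 4 stood apart from the other libraries in the members. As a mean over the 88 members of log2 CPM relative to the group mean it lay at -0.35, and the other 19 libraries lay between -0.19 (control male 1) and 0.20 (control female 4). Members with a short principal transcript carried most of the shift, and in this respect control male 1 resembled it. In nPM female 4 the 44 shorter members averaged -0.52 and the 44 longer ones -0.18, and in control male 1 they averaged -0.32 and -0.06. The other libraries with a gap over 0.10 between both sets had it the other way: nPM female 1 (0.27 and 0.09), nPM female 5 (0.12 and -0.02) and control male 2 (0.09 and -0.03). nPM female 4 also had the smallest library and the highest shares of mitochondrial ribosomal RNA (13.3%) and of mitochondrially encoded subunits (2.38%) among the 20. Control male 1 had the next highest share of these subunits (2.34%). Nearly the same share of mitochondrial ribosomal RNA (13.2%) was found in nPM female 2, which also had the next smallest library (21220354 counts). Its mean over the members lay at 0.02. Fits without nPM female 4, without control male 1 and, chosen after these values were seen, without both were run, and their values stand beside the results they change.

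**Figure D2:**
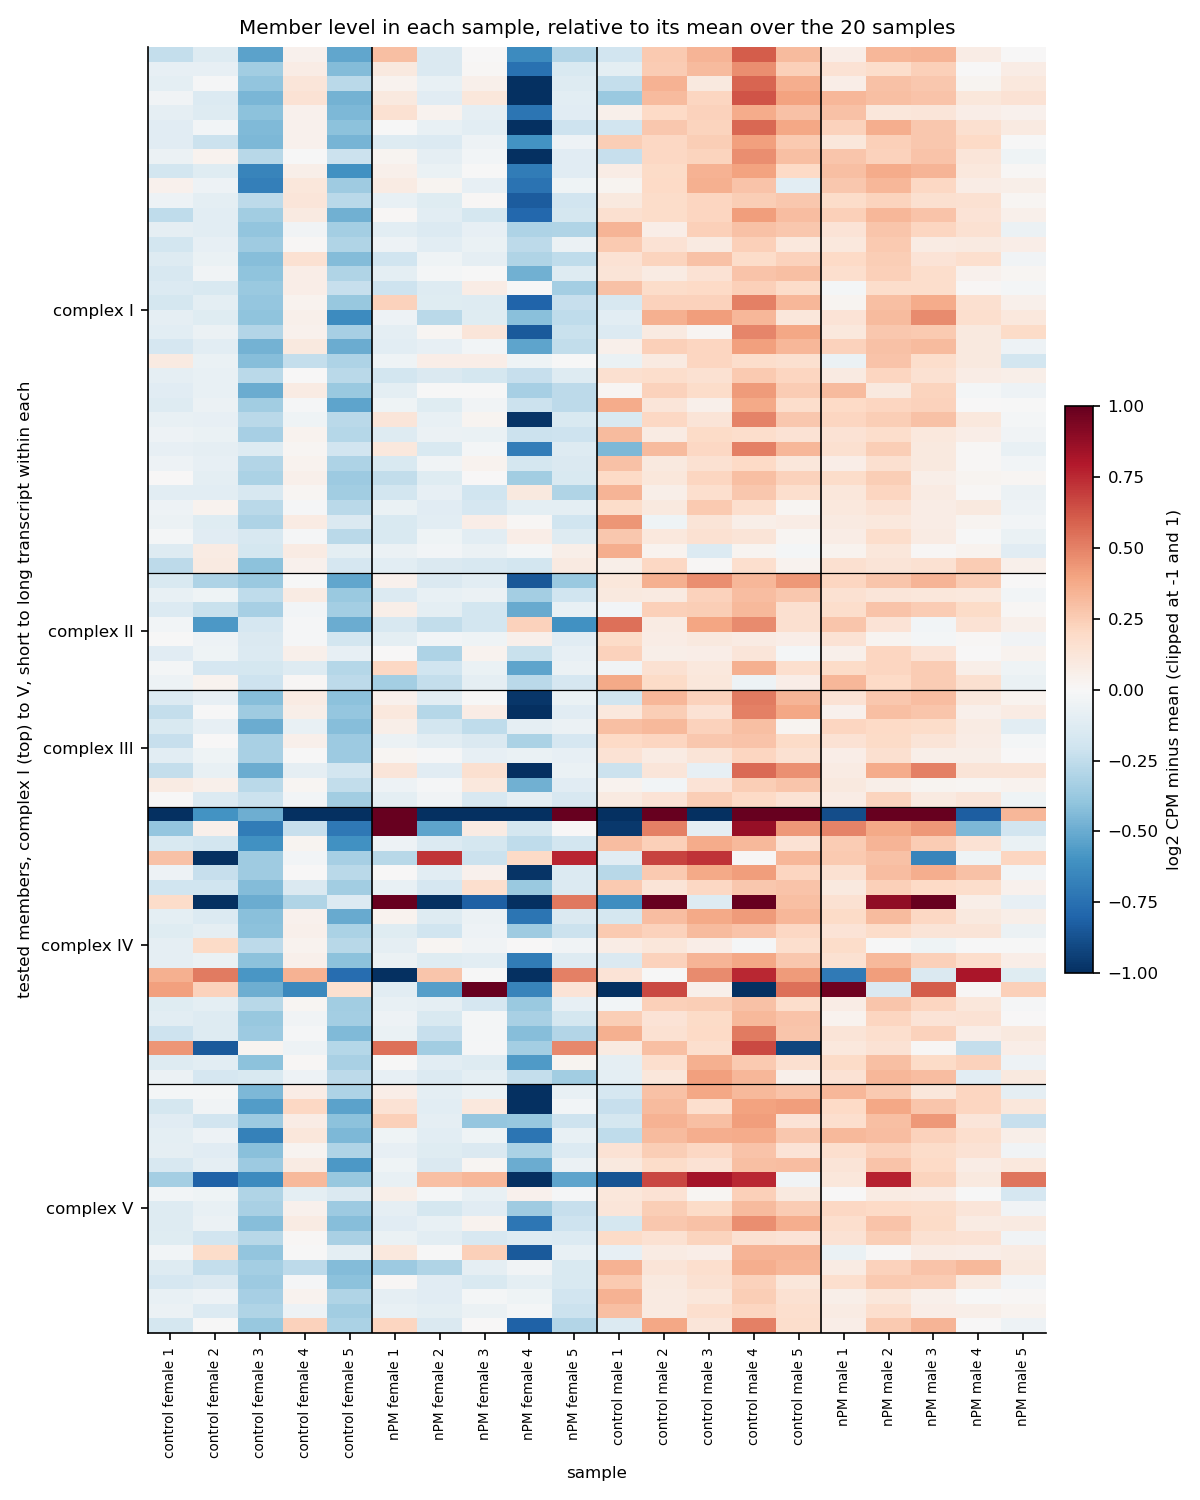
Log2 CPM of each of the 88 tested members in each of 20 samples, as the difference from the member's mean over all samples (colours clipped at -1 and 1), by complex and by length of the principal transcript. Columns of males are mostly red and columns of females mostly blue, and nPM female 4 is darkest in the short members at the top of each complex.

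The first question of the study is whether exposure in the womb changed gene activity in the adult hippocampus. With both sexes together and sex in the model, limma-voom placed 28 of 19797 genes (0.141%) past the study's threshold of an unadjusted p under 0.005, and 416 genes (2.1%) under 0.05. Members contributed 0 to either count, and edgeR and DESeq2 also placed 0 members past both limits. The smallest adjusted p of a member was 0.9998. The median log2 fold change of the members was -0.02, against -0.01 over all genes tested, and 27 of 88 members were higher with nPM. This small median changed sign to 0.01 without nPM female 4, where 49 of 88 members were higher. Higher members were 14 without nPM female 1, 15 without control female 3 and 16 without control female 5. The count of members at p under 0.05 became 1 without control female 3 and 1 without control male 1. The 95% interval of the log2 fold change reached less than 0.5 to either side for 83 of the 88 members. The chance of passing the threshold at a given true difference was not computed.

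Cox6b1, which links the monomers of cytochrome c oxidase, came first with both sexes together. Its level was 123, 125, 101, 138 and 107 CPM in the control females and 123, 116, 129, 104 and 115 CPM in the nPM females. In the control males it was 160, 157, 166, 162 and 154 CPM, and in the nPM males 147, 152, 146, 146 and 128 CPM. Exposed and control females overlapped throughout, and the lowest control male (154 CPM) lay close to the highest nPM male (152 CPM). Cox6b1 was named for its small p, and no share of genes without overlap between exposed and control males is given. The log2 fold change was -0.08 ± 0.06 (SE) with both sexes together (limma p 0.154, adjusted p 0.9998), with a 95% interval from -0.20 to 0.03. In males alone it was -0.15 ± 0.06 (limma p 0.0207, adjusted p 0.963). The next members with both sexes together were Cox6a2 (-0.35, p 0.176), Ndufb5 (-0.06, p 0.183) and Cox4i2 (0.39, p 0.193), and none of them passed the threshold.

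In males alone 41 genes (0.207%) had p under 0.005 by limma and 848 (4.28%) had p under 0.05, with 0 and 5 members among them. edgeR gave 0 and 4 members and DESeq2 0 and 7. All 5 were lower in nPM males: Cox6b1, the complex I subunit Ndufa5 (-0.15, p 0.0277), the ATP synthase beta subunit Atp5b (-0.14, p 0.0368), Uqcrh (-0.13, p 0.0379) and the complex IV subunit Cox5b (-0.16, p 0.0469). Each had an adjusted p of 0.963. Cox5b lies outside the rule by which members were named and was added after its value was seen. Among all members 13 of 88 were higher with nPM, and their median was -0.07 against 0.00 over all genes tested. Over samples left out, higher members ran from 4 (without nPM male 2) to 26 (without control male 4) and the median from -0.11 to -0.05. The median kept its sign in every fit run, while the count at p under 0.05 did not keep its size. It was 10 without control male 1, 9 without control male 2, 9 without nPM male 2, 2 without control male 4, 2 without nPM male 5 and 1 without nPM male 4. With total counts in place of TMM, and in 1 fit of the 4 groups, it was 0. A replicate block, by the number in the sample names, gave 1. No pairing of mice by this number is described in the sources used here. The count was 3 with protein-coding genes only and 3 with quality weights. Members lower at p under 0.05 were 5.68% of those tested, against 1.84% of all genes, and 0 members were higher, against 2.44% of all genes. No test compared these shares.

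In females alone 18 genes (0.0909%) had p under 0.005 by limma and 393 (1.99%) had p under 0.05, with 0 and 1 members among them. edgeR gave 0 and 2 members and DESeq2 0 and 1. The 1 member was Ndufs3, a subunit of the arm of complex I that hands electrons to ubiquinone. Its level was 59.4, 53.3, 41.6, 47.3 and 45.1 CPM in the control females and 54.3, 58.5, 58.7, 54.3 and 55.8 CPM in the nPM females. In the control males it was 53.3, 59.5, 64.8, 63.3 and 62.3 CPM, and in the nPM males 53.8, 68.1, 63.2, 59.9 and 49.2 CPM. The nPM females lay within the span of the control females, of which control female 3 was lowest. nPM females exceeded control females by 0.22 ± 0.10 (SE) on the log2 scale (p 0.0431 and adjusted p 0.9999 by limma). The next members were Atp5j (0.14, p 0.0907), Cox7a1 (0.56, p 0.0975) and Cox6a1 (0.17, p 0.123). With 1 sample left out these ran from 0.09 to 0.16, from 0.28 to 0.71 and from 0.09 to 0.23 in that order. Cox7a1 stood at 2.64 CPM in nPM female 1 and at 0.81 to 1.25 CPM in the other nPM females. Across members 63 of 88 were higher with nPM and the median was 0.04, against 0.00 over all genes tested. The median was 0.11 without nPM female 4 and -0.01 without control female 3, where 38 of 88 members were higher. The count at p under 0.05 became 3 without nPM female 4, and 0 without control female 3, control female 5, nPM female 1, nPM female 3 or nPM female 5. It was also 0 with total counts, with no filter, with age as covariate and with a replicate block.

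Whether nPM acted differently in males and females was tested by the interaction of sex and exposure. Here 43 genes (0.217%) had p under 0.005 by limma and 751 (3.79%) had p under 0.05, with 0 and 3 members among them. edgeR gave 0 and 1 members and DESeq2 0 and 5. Atp5j came first. Its level was 76.0, 75.2, 62.7, 72.4 and 70.0 CPM in the control females and 80.4, 76.5, 73.6, 79.8 and 76.7 CPM in the nPM females. In the control males it was 83.5, 85.5, 78.4, 91.4 and 82.5 CPM, and in the nPM males 77.4, 82.0, 81.5, 77.1 and 68.7 CPM. The control females lay below the control males without overlap, and the nPM groups of both sexes overlapped with each other and with the control group of their sex. Taking the female nPM effect from the male one gave -0.25 ± 0.09 (SE) on the log2 scale, with p 0.0131 and adjusted p 0.987 by limma. Atp5a1 (-0.19, p 0.0428) and the Rieske iron-sulfur protein Uqcrfs1 (-0.20, p 0.0479) followed, and Cox6a1 (-0.23, p 0.0555) came next. The difference was below 0 for 70 of 88 members, with a median of -0.09 against 0.01 over all genes tested. Over samples left out this median of the members ran from -0.17 to -0.04. The count of 3 was unstable: it was 13 without control female 4, 8 without control female 1, 6 without nPM female 4, 6 without nPM female 5, and 5 without control female 2, control male 2 or nPM male 2. It was 1 without control female 3, control female 5, control male 4, nPM female 2, nPM male 4 or nPM male 5. Without nPM female 4 and control male 1 together, a fit added after the data were seen, the count was 13 and the median -0.19. In every fit run of the 4 nPM comparisons, 0 members had p under 0.005.

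**Figure D3:**
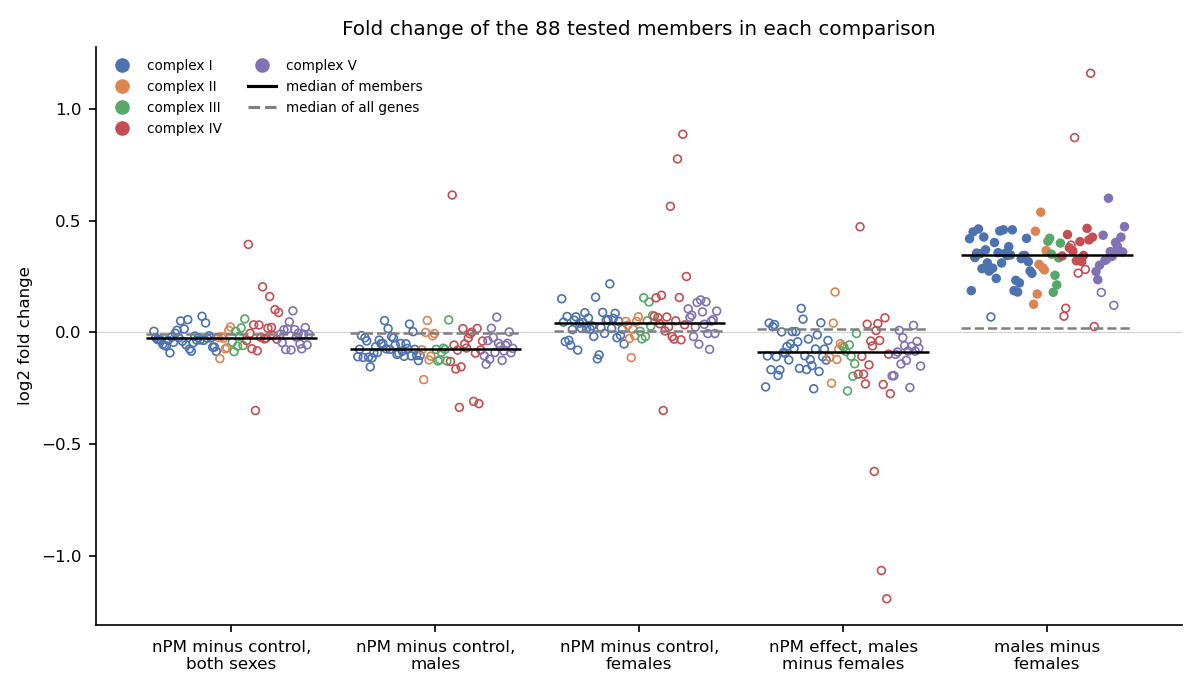
Log2 fold change of each of the 88 tested members in the 5 comparisons, coloured by complex and filled past the threshold (adjusted p under 0.05 for sex, p under 0.005 in the others); lines give the medians of members (solid) and of all genes tested (dashed). Filled points appear for males minus females alone, where all 88 members lie above 0 and the median is 0.34.

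Males and females differed far more than exposed and control mice. With exposure in the model, limma placed 8005 of 19797 genes (40.4%) at an adjusted p under 0.05, of which 3725 (18.8%) were higher in males and 4280 (21.6%) lower. Of the 88 members, 77 were higher in males at this limit and 0 were lower. edgeR and DESeq2 also gave 77 higher and 0 lower, and at an unadjusted p under 0.05 limma gave 79 higher and 0 lower. All 88 members had a positive log2 fold change, with a median of 0.34 against 0.02 over all genes tested, and the members past the limit were 87.5% of those tested. Under total counts in place of TMM, 87 of 88 were positive, with Ndufa4l2 the exception, and 69 passed. Sex in these mice goes with age, and with EdU if females received none, and the shares of these in the difference cannot be told apart. With age as a covariate 0 members passed by limma, the median was 0.16 and 79 of 88 were positive, while 8 of all 19797 genes passed. At an unadjusted p under 0.05 that fit gave 2 of 88 members and 1060 of 19797 genes.

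The first member here was Ndufb5, an accessory subunit of the membrane arm of complex I. Its level was 63.2, 64.2, 56.1, 67.6 and 55.9 CPM in the control females and 59.4, 60.9, 59.8, 57.6 and 61.5 CPM in the nPM females. In the control males it was 75.2, 76.3, 74.9, 80.8 and 78.3 CPM, and in the nPM males 71.6, 78.4, 75.1, 70.8 and 70.2 CPM. Every male lay above every female, with group means of 61.4 ± 5.21 CPM (SD, n = 5) in control females and 77.1 ± 2.45 in control males. The log2 fold change was 0.31 ± 0.04 (SE), with a limma adjusted p of 1.2e-05. Atp5s (0.47, adjusted p 1.5e-05), the ATP synthase gamma subunit Atp5c1 (0.30, adjusted p 3.4e-05) and the stalk subunit Atp5o (0.36, adjusted p 3.8e-05) followed.

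Members without overlap between the sexes were Cox5b, Ndufb5, Ndufc1, Cox4i1, Atp5s, Ndufb10 and Atp5a1, 7 of 88 (7.95%). Every male lay above every female for 331 of all genes tested (1.67%), and every male lay below every female for 621 of them and 0 members. Chance alone gives 0.000541% in either direction, for 10 males and 10 females. Cox4i1 shows how narrow such gaps were, with 262 CPM in the lowest male and 258 CPM in the highest female. Cox5b, Ndufc1 and Ndufb10 were named from this count, after their values were seen. The X-linked members Cox7b (0.34), Ndufa1 (0.42) and Ndufb11 (0.40), singled out afterwards for their chromosome, did not stand out in log2 fold change from the autosomal ones.

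The shift was spread over the complexes. At an adjusted p under 0.05 by limma, 35 of 36 members of complex I, 8 of 8 of complex II, 8 of 8 of complex III, 11 of 19 of complex IV and 15 of 17 of complex V were higher in males. Median log2 fold changes were 0.34, 0.30, 0.34, 0.36 and 0.36 in that order. Catalytic Sdha moved least among those past the limit, by 0.13 ± 0.04 (adjusted p 0.0136). In complex IV the widely expressed form of each of these pairs passed, among them Cox8a (0.41 ± 0.11, adjusted p 0.00485), Cox6b1 (0.36 ± 0.06) and Cox4i1 (0.34 ± 0.05). The tissue forms did not: Cox8b (1.16 ± 0.75, adjusted p 0.231), Cox6b2 (0.87 ± 0.36, adjusted p 0.0578), Cox6a2 (0.39), Cox7a1 (0.26), Cox7b2 (0.28), Cox4i2 (0.07) and Ndufa4l2 (0.03). With 1 sample left out, Cox8b ran from 0.79 to 1.66 and Cox6a2 from 0.24 to 0.49. Cox7a1 then ran from 0.15 to 0.44 and Cox7b2 from 0.07 to 0.41. The remaining members short of the limit were Cox5a (0.11), Atp5d (0.18), Atp5j (0.12) and Ndufab1 (0.07). Among called members Atp5g2 had the largest log2 fold change (0.60 ± 0.22, adjusted p 0.0308) and varied widely within groups, from 15.8 to 48.4 CPM in females and from 21.1 to 68.6 CPM in males. Its call was not stable: it had an adjusted p over 0.05 without control female 2, control female 3, control male 2, control male 3, control male 4, nPM female 4, nPM female 5 or nPM male 2 (log2 fold changes from 0.48 to 0.57, adjusted p from 0.0544 to 0.0611 by limma). Cox6b2 passed without control male 1, control male 3, nPM female 1, nPM female 5 or nPM male 5 (0.94 to 1.06, adjusted p from 0.0201 to 0.0492 by limma).

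The male-female difference was present in both exposure groups. In fits chosen after the data were seen, control samples alone gave 61 members past the limit and 87 of 88 positive, with a median of 0.37. nPM samples alone gave 26 members and 84 of 88 positive, with a median of 0.30. The number of all genes past the limit fell alongside, from 5230 in control samples to 2366 in nPM samples, so the smaller count of members came with fewer calls throughout. Without nPM female 4 and control male 1 together 76 members passed and the median was 0.32. Over the fits that leave out 1 sample, between 73 and 79 members passed.

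Gene lists related to the members were described in the same comparison, as counts at an adjusted p under 0.05 by limma and medians of log2 fold change. Of the 13 subunits encoded in mitochondrial DNA, 2 were higher in males (mt-Nd1 and mt-Co1), 0 were lower, and the median was 0.02. This median lies between positive values measured with small errors, such as mt-Nd1 (0.27 ± 0.06) and mt-Co1 (0.25 ± 0.08), and negative ones with large errors, such as mt-Atp8 (-1.29 ± 0.69) and mt-Co2 (-0.76 ± 0.54). Whether the list differs from the members was not tested. Among 6 nuclear genes of the chain that the names miss, 5 were higher and the median was 0.34. The 6 were Cyc1, Usmg5, Cycs, Atpif1, Higd1a and Higd2a, and not all of them are subunits. The table lacked 2010107E04Rik from this list, an older name of the member Atp5mpl. Of 41 assembly factors 20 were higher and 1 lower (median 0.16), with Pet117 at 0 in all libraries. Of 17 genes of the TCA cycle and pyruvate dehydrogenase, 12 were higher and 1, Ogdh, was lower (median 0.19).

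Shifts of like size appeared in the protein-making machinery. Of 97 cytosolic ribosomal protein genes 80 were higher in males and 1 lower, with a median of 0.40. Of 77 mitochondrial ribosomal protein genes 56 were higher and 1 lower, with a median of 0.25. The male-female shift of the members was therefore shared with both lists, and its cause was not tested. In the other direction, the nuclear-retained RNA Malat1 was lower in males by a log2 fold change of -0.65 (adjusted p 1.6e-05) and Meg3 by -0.89 (adjusted p 0.000111). Both were singled out after their values were seen. Malat1 ranged from 16518 to 25940 CPM in females and from 9831 to 15518 CPM in males, so it did not overlap between the sexes.

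Regulators of respiratory genes did not follow the members as a list. Of 15 regulators 4 were higher in males (Tfam, Tfb2m, Esrrg and Gabpa) and 4 lower (Nrf1, Ppargc1b, Pprc1 and Gabpb2), with a median of 0.06. Nrf1 fell by 0.24 on the log2 scale (adjusted p 0.00566) and Ppargc1b fell by 0.72 (adjusted p 8.97e-06), while the coactivator Ppargc1a differed by 0.02 (adjusted p 0.843). RNA levels of a regulator do not measure its activity.

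Marker genes of cells that the dissection could hold were counted in the same way. Of 8 endothelial markers 5 were lower in males and 0 higher, and of 10 pericyte markers 4 were lower and 0 higher. Of 7 microglial markers 4 were higher and 0 lower, of 6 astrocyte markers 3 were higher and 1 lower, and of 7 oligodendrocyte markers 2 were higher and 0 lower. Of 8 genes listed for excitatory neurons 2 were lower (Camk2a and Rbfox3) and 0 higher. Of 6 genes listed for parvalbumin interneurons 1 was higher (Gad1) and 1 lower (Kcnc1). Rbfox3 and Gad1 are not confined to these classes. Counts by limma were 0 in both directions for choroid plexus, meningeal fibroblast, blood, skeletal muscle, striatum, thalamus and vascular smooth muscle markers. The median was 1.25 for choroid plexus (8 of 8 higher), 1.63 for blood (3 of 3 higher) and 0.44 for meningeal fibroblasts (5 of 6 higher). These medians were not compared with that of the members by a test, and few libraries carried them for blood, where 3 males stood far above all other samples. At an unadjusted p under 0.05 the 7 lists gave 0, 2, 3, 1, 0, 1 and 1 genes in that order, and edgeR and DESeq2 were not run on lists. Excitatory neuron markers (most abundant Camk2a, 230 RPKM) stood far above the markers of striatum (Ppp1r1b, 11.0289 RPKM) and thalamus (Calb2, 11.9 RPKM). The most abundant marker was Slc1a2 for astrocytes (330.4 RPKM), Gad1 for interneurons (41.95 RPKM), Rgs5 for pericytes (18.1 RPKM) and Slco1a4 for endothelial cells (9.52 RPKM), and no listed marker was at 0 in every library. With the choroid plexus markers as covariate, a fit chosen after the data were seen, 73 of 88 members passed for sex by limma and 87 were positive. The part of other cells in the shift of the members was not tested.

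In the nPM comparisons the same lists held 0 genes at an adjusted p under 0.05 by limma. At p under 0.005 the 1 listed gene was Tfb2m in males (-0.41, p 0.00192), a factor for transcription of mitochondrial DNA. At p under 0.05 in males, counts were 0 of 13 mitochondrially encoded subunits, 0 of 41 assembly factors, 0 of 17 TCA cycle genes, 1 of 97 cytosolic and 2 of 77 mitochondrial ribosomal protein genes. The nuclear genes of the chain that the names miss gave 2 of 6 (Usmg5 and Atpif1), and the regulators 2 of 15. In females these counts were 0 in the same lists except for 3 of 97 cytosolic and 1 of 77 mitochondrial ribosomal protein genes. With both sexes together they were 1 of 41 assembly factors, 1 of 15 regulators, 1 of 97 cytosolic and 3 of 77 mitochondrial ribosomal protein genes, and 0 in the others. For the interaction they were 1 of 41 assembly factors, 2 of 97 cytosolic and 1 of 77 mitochondrial ribosomal protein genes, and 0 in the others. Directions differed between the sexes in some lists, in part as in the members and in part the opposite way. No test compared the directions of lists. Of 17 TCA cycle genes 16 were higher with nPM in females (median 0.05) and 1 in males (median -0.05). In females 8 of 8 endothelial (0.19), 7 of 7 microglial (0.21), 6 of 6 meningeal (0.56) and 7 of 8 choroid plexus markers (0.81) were higher. In males these were 4 of 8 (-0.01), 4 of 7 (0.00), 0 of 6 (-0.41) and 1 of 8 (-0.33). Oligodendrocyte markers went the opposite way (1 of 7 higher in females, -0.09, and 7 of 7 in males, 0.21). So did parvalbumin interneuron markers (1 of 6, -0.07, and 5 of 6, 0.12). The choroid plexus rise in females rested on nPM females 1 and 5 (mean log2 CPM 7.501 and 5.399). Both were also the highest females in the meningeal list. The choroid plexus mean was 1.58, 1.08 and 1.61 in nPM females 2, 3 and 4, under every control female (lowest 1.71). At p under 0.05, among cell and tissue markers, no list held more than 1 such gene, except microglia with 2 of 7 for the interaction.

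**Figure D4:**
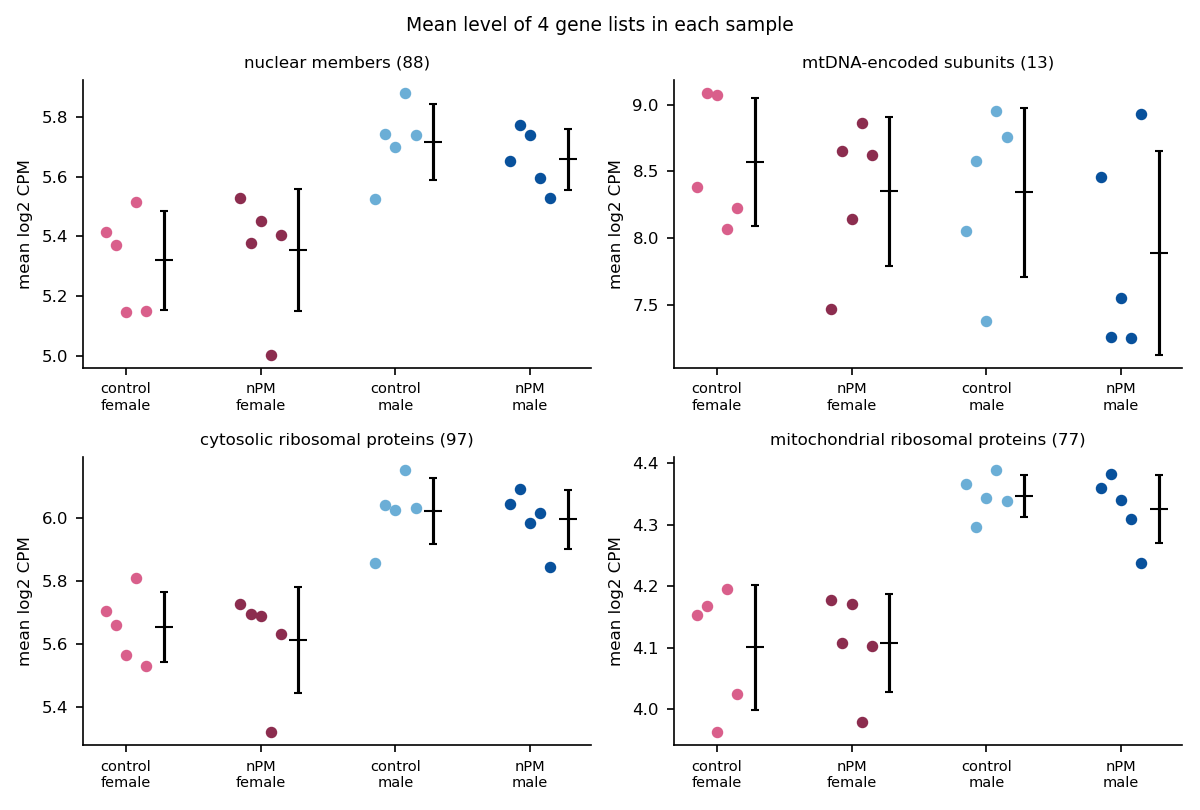
Mean log2 CPM of the 88 tested members, 13 subunits encoded in mitochondrial DNA, 97 cytosolic and 77 mitochondrial ribosomal protein genes in each sample, with group means and SD (bars, n = 5). Group means of the members are 5.32 and 5.35 in females and 5.72 and 5.66 in males, whereas the mitochondrially encoded subunits spread widely within each group.

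Members rose and fell together from mouse to mouse. Correlations were computed across the 20 samples on log2 CPM after removing group means, and are given as a description, since all pairs share the same libraries and scaling. The mean correlation over 3828 pairs of members was 0.472, 89.0% of pairs lay above 0, and the mean over all pairs of genes tested was 0.0015. Within other lists the mean correlation was 0.842 for oligodendrocyte markers, 0.484 for microglial markers and 0.453 for nuclear genes of the chain that the names miss. Cytosolic ribosomal proteins gave 0.329, mitochondrial ribosomal proteins 0.198 and assembly factors 0.099. One library, nPM female 4, lay at -0.35 in the mean of the members and enters every pair. The first principal component held 54.6% of the members' variance and the next 17.8%. Within complexes the mean correlation was 0.534 in complex I, 0.275 in complex II, 0.553 in complex III, 0.370 in complex IV and 0.5003 in complex V. Among complexes I, III and V, pairs from different complexes were as alike as pairs within one: complexes I and III gave 0.565, complexes III and V 0.557, and complexes I and V 0.529.

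The members differed in how closely they followed the rest. Averaged over its pairs with all other members, Ndufb6 had the highest correlation (0.672), ahead of Ndufs8 (0.664) and Atp5o (0.656). At the other end stood Cox7b2 (-0.093), Sdhaf1 (-0.039), Cox4i2 (0.062), Atp5s (0.082) and Sdha (0.124). Sdha had 6193 to 13611 counts per library and Cox7b2 had 1 to 15. Ndufb6 and Ndufs8 were named from this order after it was seen.

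Other lists moved with the members to different degrees. The mean correlation between a member and a gene of the list was 0.475 for nuclear genes of the chain that the names miss, 0.372 for cytosolic ribosomal proteins, 0.303 for TCA cycle genes, 0.277 for mitochondrial ribosomal proteins and 0.208 for assembly factors. It was -0.272 for subunits encoded in mitochondrial DNA and -0.011 for the regulators. Among cell and tissue markers it was highest for microglia (0.258), oligodendrocytes (0.213) and choroid plexus (0.2045). These means pool the 4 groups, and the direction for mitochondrially encoded subunits was not the same in each group. With Malat1 the members' mean correlation was -0.395 and with Meg3 -0.435.

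Length and base composition of the transcript, which the choice of members did not use, went with the spread of the members. Principal transcripts were 360 (Cox8b) to 4715 bases (Atp5g1) long and held 36.7% (Cox7b2) to 60.4% G and C (Ndufa13). The SD of log2 CPM within groups ran from 0.07 (Sdha) to 1.78 (Cox8b), with a median of 0.17. Across the 88 members, which are not independent replicates, Spearman's rho of length with this SD was -0.531 and of GC content with it 0.386, so shorter and GC-richer members varied more. The log2 fold change of males minus females also had a rho of -0.552 with length, and of -0.661 among the 75 members with at least 10 RPKM. With GC content its rho was 0.103. In nPM female 4 and control male 1 the shorter members lay lower (-0.52 and -0.32) than the longer ones (-0.18 and -0.06). The relations were not computed without these libraries. The part of RNA quality or library preparation in these relations was not tested.

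The members that varied most within groups were Cox8b, Cox6b2, Cox4i2 and Cox7b2, all of them tissue forms with few counts. Cox8b had 5, 6, 8, 5 and 3 counts in the control females and 97, 2, 3, 1 and 24 in the nPM females. It had 4, 33, 2, 129 and 43 counts in the control males and 7, 43, 66, 7 and 15 in the nPM males. Single libraries of each group but the control females stood high, among them nPM female 1 and control male 4, so sex and exposure did not sort the values.

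Markers of the choroid plexus, the secretory tissue beside the hippocampus, were high in the same libraries. All 8 were tested, with Ttr the most abundant at 1342 RPKM. Their summed level was 50.2, 301, 102, 519 and 382 CPM in the control females and 8472, 95.3, 58.2, 72.8 and 1839 CPM in the nPM females. It was 99.2, 5139, 40.1, 7529 and 3038 CPM in the control males and 91.4, 3120, 5755, 184 and 862 CPM in the nPM males. The 3 highest libraries in this sum, nPM female 1, control male 4 and nPM male 3, were also the 3 highest for Cox8b counts.

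Across the 20 samples, the mean log2 CPM of the 8 markers and the log2 CPM of Cox8b had a Pearson r of 0.954 (permutation p 1e-05) and a Spearman rho of 0.899 (permutation p 1e-05), the smallest p that 100000 permutations can give. The adjusted p over the 6 relations computed was 6e-05 for both. Without control male 4 and nPM female 1, the 2 samples farthest from the median of the markers, r was 0.936. It was 0.907 within females (permutation p 0.00125) and 0.987 within males (permutation p 2e-05), so the relation held in each sex. Cox6b2 had r 0.800 (permutation p 4e-05, adjusted 0.00012) and rho 0.797 (permutation p 6e-05, adjusted 0.00018), with r 0.738 without the same 2 samples, 0.752 within females and 0.869 within males. For Cox7a1 r was 0.709 (permutation p 0.00061, adjusted 0.00122) and rho 0.611 (permutation p 0.00512, adjusted 0.0102), and r fell to 0.565 without these samples. Within females its r was 0.677 and its rho 0.176, and within males 0.694 and 0.697, so its relation in females rests on few samples. The relations of Cox6b2 and Cox7a1 to these markers were computed after the data were seen, whereas the Cox8b relation was chosen with other results of these libraries known. Whether choroid plexus RNA accounts for these levels was not tested.

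**Figure D5:**
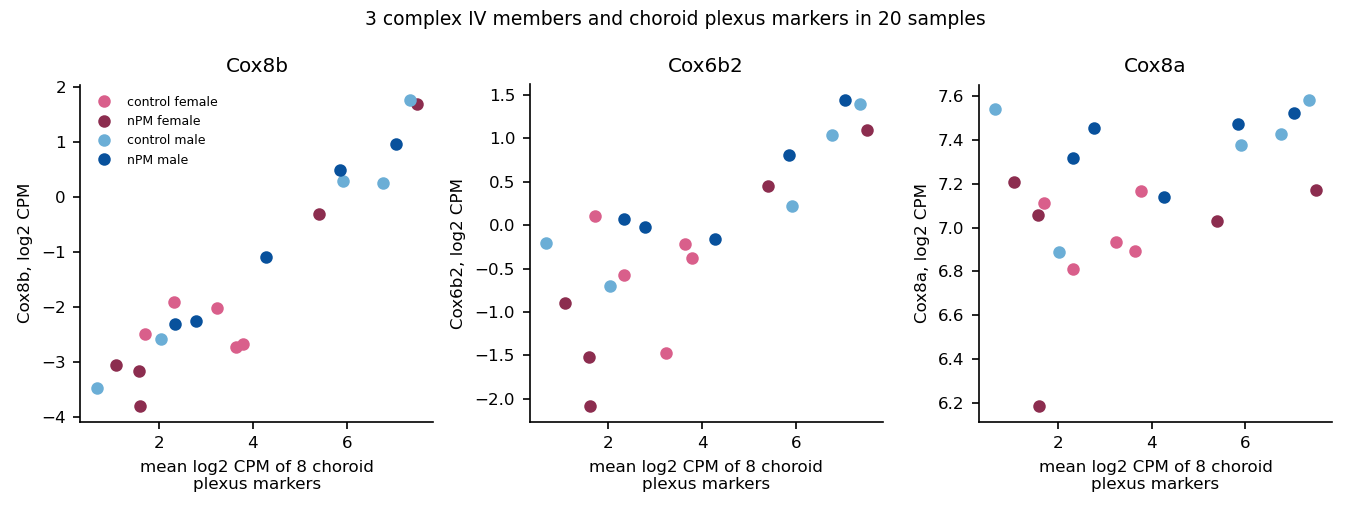
Log2 CPM of Cox8b, Cox6b2 and the widely expressed Cox8a against the mean log2 CPM of 8 choroid plexus markers in 20 samples, coloured by group. Cox8b stays at or under 0.250 CPM up to a marker mean of 3.78, and lies at 0.454 CPM or more from 4.27 onward (r 0.954 over all samples). For Cox8a males lie above females over most of the axis.

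For the other pairs of a tissue form and a cell type, r over all samples was lower. Cox4i2, known from pericytes, had r 0.372 with 10 pericyte markers (permutation p 0.107, adjusted 0.161) and rho 0.550 (permutation p 0.0128, adjusted 0.0192), with r 0.396 without the 2 farthest samples, 0.633 within females and 0.224 within males. Its rho was 0.685 within females and 0.721 within males. Ndufa4l2, also known from pericytes, had r 0.170 (permutation p 0.473, adjusted 0.508) and rho 0.137 (permutation p 0.562, adjusted 0.562), with r 0.173 without the 2 farthest samples, 0.380 within females and -0.083 within males. Its rho was 0.333 within females and 0.00606 within males. Cox6a2, known from parvalbumin interneurons, had r 0.157 with 6 of their markers (permutation p 0.508, adjusted 0.508) and rho 0.408 (permutation p 0.0763, adjusted 0.0916), with r 0.449 without the 2 farthest samples, 0.621 within females and -0.401 within males. Its rho was 0.782 within females and 0.139 within males, so the sign within males depends on the measure. These 3 members had 4 to 79 counts per library, and counting noise is large at such counts.

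These values have limits that more analysis of the same libraries cannot lift. The 10 mice of each exposure came from at most 5 litters while the dams were exposed, so littermates were counted as independent in the fits with both sexes. Littermates may also be among the 5 mice of a group, so the same can hold in the fits within a sex. The 4 nPM comparisons share samples, and a control library that is high or low enters several of them. Sex goes with age in all 20 mice. RNA was measured in whole tissue, and neither protein, respiration nor mitochondrial number was. Members with overlapping genes, close copies or few counts are the least certain, and intervals cover none of these sources of error. Promoter matches leave out 16 members and describe letters alone.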

How the data were processed

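RNA from the right hippocampus of 20 mice was depleted of ribosomal RNA and sequenced. The authors made the counts with FastQC, Trimmomatic, HISAT2 (mm10) and featureCounts 1.5.0-p3 on Gencode genes, and deposited them as unscaled integers. The deposited RPKM values are means per gene, and 0 genes differed by over 1e-06 from RPKM computed here from the counts, the library totals and the deposited lengths.

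Members and gene lists were chosen with earlier results of these data known. Genes were tested after the edgeR filter on the 4 groups (minimum count 10, minimum total 15). TMM factors ran from 0.958 to 1.06. limma-voom (two-sided, adjusted by Benjamini-Hochberg over all genes tested) compared nPM with control in both sexes, in males and in females, tested their interaction, and compared males with females. The thresholds were p under 0.005 for nPM and adjusted p under 0.05 for sex. Genes were named by rule: the 4 smallest p of each comparison, the highest and lowest level of each complex, tissue forms with their counterparts, and the 4 with the largest spread within groups. Lists were mitochondrially encoded subunits, other nuclear genes of the chain, assembly factors, TCA cycle, regulators and both sets of ribosomal proteins. Markers of cell types and neighbouring tissues were listed as well.

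Alternatives were edgeR and DESeq2 tests, RLE, total counts, totals without mitochondrial and ribosomal RNA, no filter, a filter of 1 CPM in 5 samples, protein-coding genes only, quality weights, age as covariate, 1 fit of the 4 groups, a replicate block, members without the non-subunits, and each sample left out. Added after the data were seen were choroid plexus markers as covariate, leaving out nPM female 4 and control male 1 together, sex within control or nPM samples alone, and the length of the principal transcript. Tools were Python 3.11.15, numpy 2.4.6, pandas 2.3.3, matplotlib 3.10.9, R 4.3.3, edgeR 4.0.16, limma 3.58.1 and DESeq2 1.42.0.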

Additional observations from a re-analysis of the deposited data

Results flagged for a closer look

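For 34 members, the lowest or highest sample of each group was compared with the others by its gap to the nearest sample, divided by the range of the group. Of 136 groups of 5 samples, 9 held a sample beyond Dixon's 95% critical value, and chance alone gives about 1 in 20 groups. nPM female 4 was the lowest nPM female for Cox7a2 (0.881), Cox8a (0.824), Uqcrq (0.784), Ndufa4 (0.762) and Cox7b (0.745). Control male 1 was the lowest control male for Ndufa4 (0.802) and the highest for Sdha (0.747). Control female 2 was the lowest control female for Cox7b2 (0.764), and nPM male 5 the lowest nPM male for Cox6b1 (0.757). Of the 9 values, 5 came from nPM female 4, the library lowest in the members as a whole, so they are not independent of each other.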

How the results depend on the processing

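In the nPM comparisons, 0 members had p under 0.005 in limma under every alternative, in edgeR and in DESeq2, and all 459 values of 16 named results kept direction and side of the threshold. At p under 0.05 the limma counts over samples left out ran from 0 to 1 (both sexes), 1 to 10 (males), 0 to 3 (females) and 1 to 13 (interaction).

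Of 1041 values for males minus females in 29 genes, 963 kept direction and side of the threshold, 49 no longer passed it (13 of them Atp5g2), 6 newly passed it (Cox6b2) and 23 reversed. With age as covariate, limma placed 0 members past an adjusted p under 0.05 (2 of 88 at an unadjusted p under 0.05, as were 1060 of 19797 genes), with a median of 0.16. Age and sex had a correlation of 0.943 over the 20 mice, so that fit separates them poorly. In it 79 of 88 members were positive. Among the 29 genes, log2 fold changes reversed there for Ndufab1 (-0.16), Cox4i2 (-0.89), Cox6b2 (-0.21), Cox7a1 (-0.76), Cox8b (-1.21) and Ndufa4l2 (-0.079). nPM samples alone gave 26 members, against 61 with control samples alone. Among the 29 genes, nPM samples alone reversed Cox7a1 (-0.032), Cox7b2 (-0.23) and Ndufa4l2 (-0.11). Control samples alone reversed Cox4i2 (-0.19). Ndufa4l2 also reversed with total counts (-0.013), protein-coding genes only (-0.019), choroid plexus markers as covariate (-0.049) and without nPM female 4 and control male 1 together (-0.029). Over samples left out it ran from -0.066 to 0.15, and Cox4i2 from -0.024 to 0.23. The cause was not tested.

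With the replicate block, 74 members passed for sex by limma. Members with p under 0.05 by limma were 1 in males, 0 in females and 3 for the interaction. That block follows the number in the sample names, for which no pairing of mice is described. Without a filter the median of all genes moved to -0.10 for sex. The length of the principal transcript moved the median level to 66.5 RPKM. Depth limits the tissue forms most, since Cox7b2 had 1 to 15 counts per library.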
